A study of Mus musculus with 8 samples.

Results

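The genes described here build and run the mitotic spindle, the microtubule machine that separates chromosomes when a cell divides, and the kinetochores, the protein assemblies that tie chromosomes to it. A list of 42 such genes, chosen with earlier results of these data known, was looked up by symbol among the probe sets of the array. Of these, 40 had a probe set of their own, 1 each, out of 30663 genes with exactly 1 symbol. Foxm1, a transcription factor of the G2 and M phases, shares its probe set with another gene, and Ccnb1, the main mitotic cyclin, had no named probe set; neither was analysed here.

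RNA came from the forepaw skin of 8 mice, each on an array of its own, of strain C57Bl/6 and 8 weeks old. The 4 Krt16 null mice (2 males and 2 females) were all labelled as having lesions, and the 4 WT (wild-type) littermates (2 males and 2 females) as having normal skin. Krt16 encodes a keratin of palm and sole skin, and in the null allele LacZ from bacteria stands in place of its coding sequence. No null mouse was labelled as free of lesions, and an effect of the genotype cannot be told apart from one of the lesion. Every value is a signal on the log2 scale, where 1 unit is a 2-fold step in signal, and every difference is null minus WT. A gene is called where its p, adjusted by the method of Benjamini and Hochberg over all 30663 genes in limma's test with sex in the model, is under 0.05. A positive difference can come from a larger share of dividing cells or from more RNA per dividing cell, which cannot be told apart in bulk skin. That share also depends on how much other tissue a sample holds.

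In mammalian skin, dividing keratinocytes sit mainly in the basal layer of the epidermis and in hair follicles. As a cell enters mitosis, CDK1 with cyclins A and B starts chromosome condensation and spindle assembly. The spindle checkpoint then holds the anaphase-promoting complex (APC/C) back until all kinetochores are attached. Most of these genes are transcribed late in the cell cycle, and many carry in their promoters a cell cycle genes homology region (CHR), the site of the MuvB core that DREAM, B-MYB and FOXM1 complexes share, often near CCAAT boxes bound by NF-Y.

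The promoters of the 4 measured genes with the smallest p that have a RefSeq entry show how these letters lie in genes of this list. Each runs from 250 bases before the transcription start to 50 bases after it in GRCm38.p6, read 5′ to 3′ along the gene. Capitals mark CHR letters (TTTGAA or TTCGAA, and the reverse complement TTCAAA) and CCAAT or its reverse complement ATTGG. The windows are Top2a (chr11:99024140-99024439, minus strand), Bub1 (chr2:127831810-127832109, minus strand), Smc2 (chr4:52438971-52439270, plus strand) and Melk (chr4:44300667-44300966, plus strand).
Top2a: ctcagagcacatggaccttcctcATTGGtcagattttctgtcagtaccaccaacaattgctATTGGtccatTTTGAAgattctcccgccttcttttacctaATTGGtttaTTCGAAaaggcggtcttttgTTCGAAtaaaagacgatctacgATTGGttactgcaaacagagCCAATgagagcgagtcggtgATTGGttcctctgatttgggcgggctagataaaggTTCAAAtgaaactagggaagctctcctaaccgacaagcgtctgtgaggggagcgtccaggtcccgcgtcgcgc
Bub1: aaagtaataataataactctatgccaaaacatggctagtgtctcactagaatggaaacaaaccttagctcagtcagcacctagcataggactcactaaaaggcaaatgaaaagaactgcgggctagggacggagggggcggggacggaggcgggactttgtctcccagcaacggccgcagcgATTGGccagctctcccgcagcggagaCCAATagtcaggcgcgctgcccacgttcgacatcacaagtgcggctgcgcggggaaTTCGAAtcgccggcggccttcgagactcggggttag
Smc2: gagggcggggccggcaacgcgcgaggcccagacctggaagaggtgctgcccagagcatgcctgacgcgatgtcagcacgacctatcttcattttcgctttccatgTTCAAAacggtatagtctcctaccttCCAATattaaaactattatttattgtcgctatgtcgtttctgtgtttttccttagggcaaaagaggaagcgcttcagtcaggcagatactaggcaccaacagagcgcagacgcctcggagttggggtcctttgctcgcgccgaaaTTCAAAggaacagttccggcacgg
Melk: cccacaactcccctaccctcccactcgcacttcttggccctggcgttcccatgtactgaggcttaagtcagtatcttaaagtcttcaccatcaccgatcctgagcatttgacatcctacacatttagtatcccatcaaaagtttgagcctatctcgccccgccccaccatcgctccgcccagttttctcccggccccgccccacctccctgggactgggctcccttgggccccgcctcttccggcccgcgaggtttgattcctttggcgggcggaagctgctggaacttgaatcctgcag

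Top2a held CHR letters at 4 places, with first bases at positions -179, -140, -120 and -23 from the transcription start, and it held 6 CCAAT boxes. Bub1 held 1 CHR match, at position 15 after the start, and 2 CCAAT boxes. Smc2 held 2 CHR matches, at -145 and 27, and 1 CCAAT box. Melk held neither in this window. A match is a description of letters, not of binding. No match overlapped another in these windows. Of 40 measured genes 34 had an entry, with 36 promoters in all. CHR letters stood in 29 of the 36 (80.6%), against 19.2% of all 32851 promoters of the same length. Within 100 bases before to 50 after the start they stood in 27 of 36 (75.0%), against 8.59% of all promoters. CCAAT stood in 28 of 36 (77.8%), against 37.4% of all promoters, and both motifs in 26 of 36 (72.2%), against 7.52%. The 7 genes without CHR letters in the window were Nuf2, Nek2, Nusap1, Cenpe, Melk, Mad2l1 and Birc5. Other mitosis genes, outside the list, held CHR letters in 52 of 125 promoters (41.6%), near the start in 38 (30.4%), and both motifs in 29 (23.2%). DNA replication genes held CHR letters in 6 of 30 promoters. Of the listed genes, those called between genotypes held CHR letters in 21 of 26 promoters, all 21 near the start. Those not called held them in 8 of 10, 6 of them near the start.

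Of the 40 measured genes, 28 were higher in null skin, 0 were lower and 12 were not called. Over all genes, 7.06% were called higher and 5.97% lower. The list was chosen with earlier results of these data known, so its values beside those of all genes are a description, not a test. With no adjustment 36 of the 40 had p under 0.05, against 8143 of all 30663 genes in either direction. All 36 had a positive difference. Differences were above 0 in 39 of the 40, against 16759 of all 30663 genes. The median over the 40 was 0.34, against 0.01 over all genes. The sizes were modest. The called genes differed by 0.23 to 0.79, or 1.17-fold to 1.73-fold, and 0 of the 40 reached 2-fold, which 191 called genes of the whole table did. The median over called members was 0.43, against 0.37 over all genes called higher. All 4 null arrays lay above all 4 WT arrays in 24 members, against 10.1% of all genes.

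**Figure D1:**
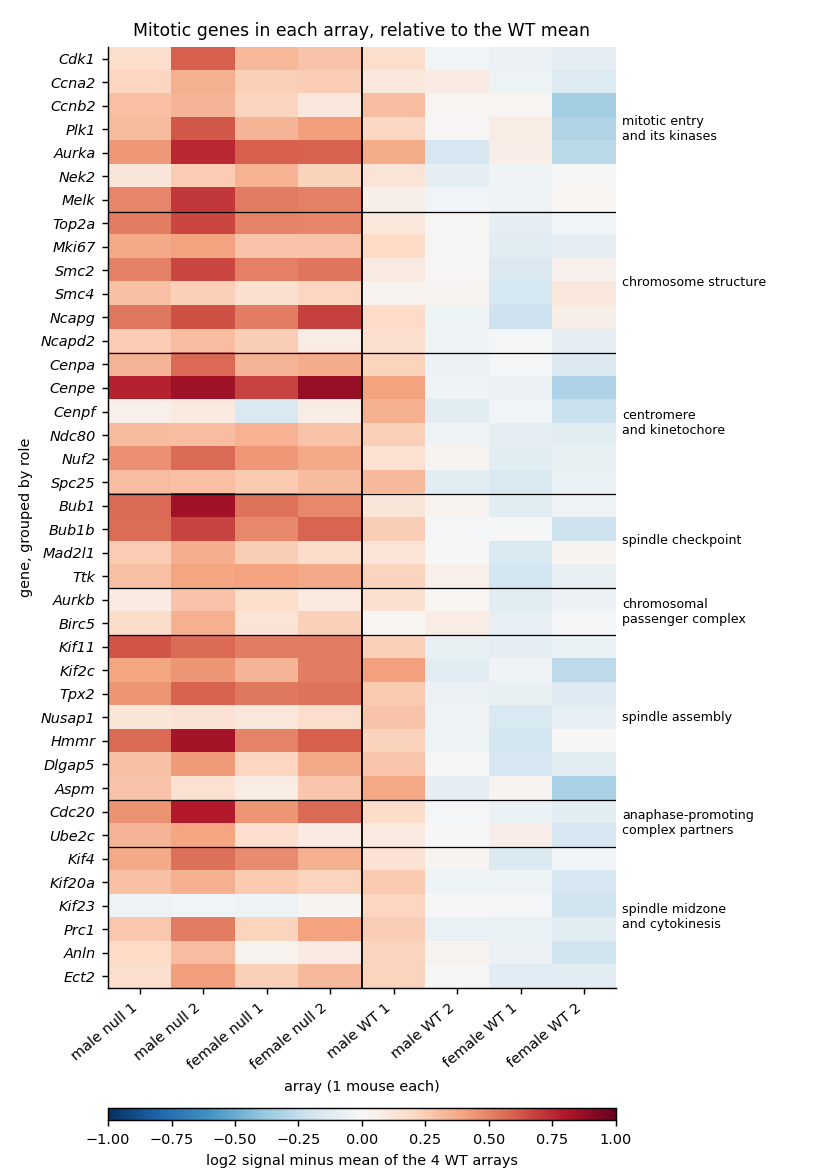
Signal of each of the 40 mitotic genes (rows, grouped by role) in each array (columns, null arrays left of the line and WT arrays right of it), as log2 signal minus the mean of the 4 WT arrays. Most cells of the null columns are red, Cenpf and Kif23 being near white or blue, and male WT 1 is the reddest WT column, highest of the WT arrays in 38 of 40 genes.

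Some arrays stood apart in these genes. Male WT 1 had the highest WT signal in 38 of the 40, against 25.2% of all genes, and male null 2 the highest null signal in 28, against 28.3% of all genes. The mean over the 40 genes was 6.65, 6.78, 6.63 and 6.66 in male null 1, male null 2, female null 1 and female null 2, against 6.52, 6.29, 6.23 and 6.20 in male WT 1, male WT 2, female WT 1 and female WT 2. The array order is the same wherever 4 values are listed below. Without male WT 1, the 28 higher calls stayed 28 in number, 3 lost and 3 gained, all 40 differences were above 0, and the median was 0.41. Over all genes 4.27% were called higher in that fit.

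All 320 signals of the 40 genes, 4.55 to 10.04, lay above the median of the negative control probe sets on their array (4.26 to 4.46). Krt16, the gene disrupted in the null mice, read 6.83 to 6.99 in null skin, against 7.05 to 9.66 in WT skin, with all null arrays below all WT arrays and a difference of -1.45 that was not called (adjusted p = 0.0616). Basal and suprabasal keratinocyte markers were bright in both genotypes, with list means of 8.63 to 8.83 and 11.40 to 11.66 in null arrays, against 8.64 to 8.86 and 11.86 to 12.03 in WT arrays. In the suprabasal list the median difference was -0.07, while Krt9 (-2.465), Krt2 (-0.60) and Lor (-0.35) were called lower.

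Mitotic entry is run by CDK1, its cyclins and the kinases around it. Of 7 measured genes of this role 5 were higher and 2 were not called. Cdk1, the kinase that drives entry, read 6.01, 6.43, 6.17 and 6.12 in null skin, against 6.01, 5.81, 5.78 and 5.75 in WT skin. Male null 1 (6.014) lay barely above male WT 1 (6.008), and the groups kept apart only by that margin. The difference was 0.35 (SE 0.09, adjusted p = 0.0369). Ccna2, the cyclin of S phase and early mitosis, read 7.26, 7.40, 7.29 and 7.29 in null skin, against 7.15, 7.13, 7.0 and 6.91 in WT skin. The groups did not overlap, and it rose by 0.26 (SE 0.06, adjusted p = 0.0186). Ccnb2, a B-type cyclin, read 8.23, 8.26, 8.15 and 8.04 in null skin, against 8.24, 7.94, 7.94 and 7.58 in WT skin. Male WT 1 reached the level of the higher null arrays and female WT 2 lay lowest, and the difference of 0.24 (SE 0.10, adjusted p = 0.136) was not called.

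Plk1, the polo-like kinase of centrosome maturation and mitotic exit, read 7.56, 7.86, 7.58 and 7.65 in null skin, against 7.45, 7.25, 7.31 and 6.94 in WT skin. All null arrays exceeded all WT arrays, by 0.42 (SE 0.10, adjusted p = 0.0247) on average. Aurka, the Aurora kinase of spindle poles, read 6.41, 6.73, 6.57 and 6.56 in null skin, against 6.34, 5.80, 6.04 and 5.70 in WT skin; female WT 2 and male WT 2 lay lowest. The groups did not overlap, and it rose by 0.59 (SE 0.13, adjusted p = 0.0183). Nek2, a kinase that splits centrosomes, read 5.59, 5.72, 5.81 and 5.70 in null skin, against 5.60, 5.38, 5.42 and 5.47 in WT skin. Male null 1 and male WT 1 overlapped there, and the difference of 0.24 (SE 0.07, adjusted p = 0.0591) was not called. Melk, a kinase found mainly in dividing cells, read 5.84, 6.06, 5.87 and 5.85 in null skin, against 5.41, 5.33, 5.30 and 5.37 in WT skin. Its null arrays lay well above a tight WT group, at 0.55 (SE 0.06, adjusted p = 0.000994). The call of Cdk1 was lost without most single arrays (adjusted p up to 0.108). Calls of Ccna2, Plk1 and Aurka were lost without some single arrays, with adjusted p up to 0.0681, 0.0847 and 0.0656. With same-numbered mice as pairs, Cdk1 was not called (adjusted p = 0.0506).

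Genes that shape mitotic chromosomes included Top2a, the gene with the smallest p of the list. Of 6 measured, 4 were higher and 2 were not called. Top2a, the topoisomerase that untangles sister DNA, read 7.98, 8.13, 7.96 and 7.95 in null skin, against 7.58, 7.48, 7.37 and 7.44 in WT skin. The groups lay apart, with a difference of 0.54 (SE 0.06, adjusted p = 0.000573). Mki67, the coat protein of mitotic chromosomes known as Ki-67 and a standard marker of dividing cells, read 10.02, 10.04, 9.92 and 9.93 in null skin, against 9.84, 9.65, 9.53 and 9.54 in WT skin. It was the brightest gene of the list in every array and rose by 0.34 (SE 0.06, adjusted p = 0.00684). Smc2, the condensin ATPase subunit, read 6.57, 6.73, 6.57 and 6.60 in null skin, against 6.15, 6.07, 5.92 and 6.10 in WT skin. The groups lay far apart, at 0.55 (SE 0.06, adjusted p = 0.000981).

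Smc4, the partner of Smc2 in both condensins, read 7.53, 7.48, 7.40 and 7.45 in null skin, against 7.27, 7.26, 7.07 and 7.35 in WT skin. All null arrays lay above all WT arrays, female null 1 and female WT 2 being closest, yet the difference of 0.23 (SE 0.07, adjusted p = 0.056) missed the threshold. Smc4 was called without female WT 2 (adjusted p = 0.0183) and with same-numbered mice as pairs (adjusted p = 0.0368). Ncapg, a subunit of condensin I, read 5.28, 5.39, 5.27 and 5.43 in null skin, against 4.94, 4.71, 4.55 and 4.81 in WT skin. It did not overlap and rose by 0.59 (SE 0.09, adjusted p = 0.00335). Ncapd2, another condensin I subunit, read 7.22, 7.27, 7.21 and 7.04 in null skin, against 7.12, 6.91, 6.95 and 6.88 in WT skin. Female null 2 lay under male WT 1, and the difference of 0.22 (SE 0.07, adjusted p = 0.0585) was not called.

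At the centromere and kinetochore 4 of 6 genes were higher. Cenpe, the motor that carries chromosomes to the spindle equator, read 7.12, 7.20, 7.03 and 7.22 in null skin, against 6.76, 6.31, 6.29 and 6.05 in WT skin. It had the largest difference of the 40, 0.79 (SE 0.12, adjusted p = 0.00327), or 1.73-fold, with no overlap. Cenpa, the histone variant that marks centromeres, read 6.13, 6.36, 6.13 and 6.16 in null skin, against 6.01, 5.73, 5.77 and 5.65 in WT skin. Male null 2 was highest and male WT 1 came nearest to the null arrays, and the difference was 0.40 (SE 0.08, adjusted p = 0.0117). Cenpf, a large protein of the outer kinetochore, read 6.72, 6.77, 6.51 and 6.75 in null skin, against 7.02, 6.56, 6.64 and 6.45 in WT skin. Male WT 1 was the highest of all 8 arrays, the groups overlapped, and the difference was 0.02 (SE 0.11, adjusted p = 0.944), with a 95% confidence interval of -0.22 to 0.26.

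NDC80, NUF2, SPC24 and SPC25 form the complex that grips microtubules at the kinetochore. Ndc80 read 6.28, 6.27, 6.31 and 6.24 in null skin, against 6.20, 5.93, 5.86 and 5.86 in WT skin. The groups did not overlap, male WT 1 lying just under the null arrays, and it rose by 0.32 (SE 0.07, adjusted p = 0.0237). Nuf2 read 5.91, 6.02, 5.89 and 5.83 in null skin, against 5.61, 5.49, 5.35 and 5.38 in WT skin. It rose by 0.46 (SE 0.06, adjusted p = 0.00166), with a clear gap between the groups. Spc25 read 5.11, 5.10, 5.06 and 5.12 in null skin, against 5.13, 4.69, 4.64 and 4.73 in WT skin. The 4 null arrays were within 0.1 of each other and 3 WT arrays lay far below, but male WT 1 was above every null array, and 0.30 (SE 0.10, adjusted p = 0.0725) was not called. Without male WT 1, Spc25 was called (adjusted p = 0.00916). The call of Ndc80 was lost without most single arrays (adjusted p up to 0.0825).

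The spindle checkpoint holds back anaphase until every kinetochore is attached. All 4 measured genes of this role were higher, with no overlap in any of them. Bub1, a checkpoint kinase, read 5.62, 5.89, 5.59 and 5.53 in null skin, against 5.18, 5.09, 4.95 and 5.0 in WT skin, a difference of 0.61 (SE 0.07, adjusted p = 0.000976). Male null 2 stood highest. Bub1b, which encodes BUBR1, the subunit that inhibits the APC/C, read 6.32, 6.44, 6.24 and 6.34 in null skin, against 6.00, 5.74, 5.74 and 5.55 in WT skin, a difference of 0.57 (SE 0.08, adjusted p = 0.00257). Female WT 2 was lowest and male WT 1 closest to the null arrays. Mad2l1, encoding the checkpoint protein MAD2, read 6.47, 6.58, 6.47 and 6.41 in null skin, against 6.35, 6.22, 6.07 and 6.24 in WT skin, a smaller difference of 0.26 (SE 0.06, adjusted p = 0.0258). Ttk, the checkpoint kinase MPS1, read 6.03, 6.13, 6.13 and 6.11 in null skin, against 5.95, 5.78, 5.54 and 5.66 in WT skin, a difference of 0.37 (SE 0.08, adjusted p = 0.0171). Male WT 1 and male null 1 were less than 0.1 apart. The calls of Mad2l1 and Ttk were lost without some single arrays (adjusted p up to 0.0895 and 0.0626).

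The chromosomal passenger complex corrects faulty attachments and moves to the midzone at anaphase. Its kinase gene Aurkb read 5.93, 6.13, 6.02 and 5.94 in null skin, against 6.00, 5.86, 5.73 and 5.78 in WT skin. Male WT 1 lay among the null arrays, and the difference of 0.16 (SE 0.07, adjusted p = 0.163) was not called. Birc5, which encodes the subunit survivin, read 5.42, 5.59, 5.37 and 5.47 in null skin, against 5.25, 5.31, 5.15 and 5.22 in WT skin. The groups did not overlap, by a gap of under 0.1, and it rose by 0.23 (SE 0.06, adjusted p = 0.0374). That call was lost without most single arrays (adjusted p up to 0.125).

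Of 7 spindle assembly genes, 4 were higher and 3 were not called. Kif11, the motor that pushes spindle poles apart, read 8.07, 8.01, 7.95 and 7.95 in null skin, against 7.68, 7.37, 7.34 and 7.37 in WT skin. The null arrays lay together and far above 3 WT arrays at nearly 1 level, with male WT 1 between, and the difference was 0.55 (SE 0.07, adjusted p = 0.00168). Kif2c, a kinesin that shortens microtubules at centromeres, read 6.10, 6.14, 6.05 and 6.22 in null skin, against 6.12, 5.59, 5.67 and 5.44 in WT skin. Male WT 1 lay inside the null range and the difference of 0.42 (SE 0.12, adjusted p = 0.0504) missed the threshold. It was called without male WT 1 (adjusted p = 0.00687). Tpx2, which activates Aurora A on spindle microtubules, read 7.07, 7.22, 7.16 and 7.17 in null skin, against 6.89, 6.57, 6.55 and 6.50 in WT skin. It did not overlap and rose by 0.53 (SE 0.08, adjusted p = 0.00472).

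Hmmr, a microtubule-binding protein of spindle poles, read 6.37, 6.63, 6.29 and 6.39 in null skin, against 6.03, 5.76, 5.60 and 5.80 in WT skin. It had the second largest difference of the list, 0.62 (SE 0.09, adjusted p = 0.00264), without overlap. Dlgap5, which stabilises kinetochore fibres, read 6.23, 6.36, 6.15 and 6.31 in null skin, against 6.21, 5.93, 5.77 and 5.83 in WT skin. Female null 1 lay under male WT 1, and the difference of 0.33 (SE 0.08, adjusted p = 0.0314) was called. That call was lost without most single arrays (adjusted p up to 0.0919). Nusap1, which bundles spindle microtubules, read 6.06, 6.08, 6.05 and 6.12 in null skin, against 6.22, 5.88, 5.79 and 5.86 in WT skin. The null arrays were nearly level and male WT 1 was above all of them, and 0.14 (SE 0.08, adjusted p = 0.346) was not called. Aspm, a spindle pole protein, read 6.21, 6.07, 6.00 and 6.20 in null skin, against 6.31, 5.84, 5.95 and 5.60 in WT skin. Again male WT 1 was the highest of the 8 arrays, and female WT 2 the lowest, and 0.20 (SE 0.12, adjusted p = 0.369) was not called.

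CDC20 and UBE2C act with the APC/C to degrade cyclin B and end mitosis. Cdc20, its activator, read 6.13, 6.47, 6.11 and 6.24 in null skin, against 5.86, 5.67, 5.61 and 5.57 in WT skin. All null arrays lay above all WT arrays, and it rose by 0.56 (SE 0.08, adjusted p = 0.00358). Ube2c, its ubiquitin-conjugating enzyme, read 7.88, 7.93, 7.71 and 7.62 in null skin, against 7.63, 7.54, 7.61 and 7.37 in WT skin. Female null 2 lay at the level of male WT 1, and the difference of 0.25 (SE 0.07, adjusted p = 0.0442) was called. That call was lost without most single arrays (adjusted p up to 0.136).

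Among 6 genes of the spindle midzone and cytokinesis, 4 were higher, but the groups kept apart only in Kif4. Kif4, a motor of the midzone and of chromosome arms, read 6.11, 6.29, 6.21 and 6.09 in null skin, against 5.88, 5.76, 5.59 and 5.70 in WT skin, a difference of 0.44 (SE 0.07, adjusted p = 0.0042). Kif20a, a midzone motor, read 6.96, 7.02, 6.92 and 6.89 in null skin, against 6.92, 6.62, 6.62 and 6.49 in WT skin. Male WT 1 reached the null range and the other WT arrays did not, with a difference of 0.28 (SE 0.08, adjusted p = 0.0387). Kif23, the motor of centralspindlin, read 6.78, 6.80, 6.78 and 6.85 in null skin, against 7.04, 6.83, 6.81 and 6.63 in WT skin. The null arrays lay within 0.1 of each other and male WT 1 above them all, and the difference was -0.03 (SE 0.08, adjusted p = 0.892), with a 95% confidence interval of -0.20 to 0.15.

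Prc1, which cross-links midzone microtubules, read 7.06, 7.30, 7.02 and 7.19 in null skin, against 7.03, 6.73, 6.72 and 6.68 in WT skin. It rose by 0.35 (SE 0.09, adjusted p = 0.029), with female null 1 slightly under male WT 1. Anln, the anillin of the contractile ring, read 7.31, 7.42, 7.15 and 7.19 in null skin, against 7.33, 7.14, 7.05 and 6.91 in WT skin. Male WT 1 was second only to male null 2, and 0.16 (SE 0.06, adjusted p = 0.15) was not called. Ect2, which activates RhoA for furrowing, read 7.05, 7.29, 7.11 and 7.20 in null skin, against 7.10, 6.87, 6.76 and 6.77 in WT skin. Male null 1 lay under male WT 1, and the difference was 0.29 (SE 0.08, adjusted p = 0.0438). Calls of Kif20a, Prc1 and Ect2 were each lost without most single arrays (adjusted p up to 0.118, 0.0975 and 0.134). With same-numbered mice as pairs Ect2 was not called (adjusted p = 0.0654).

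**Figure D2:**
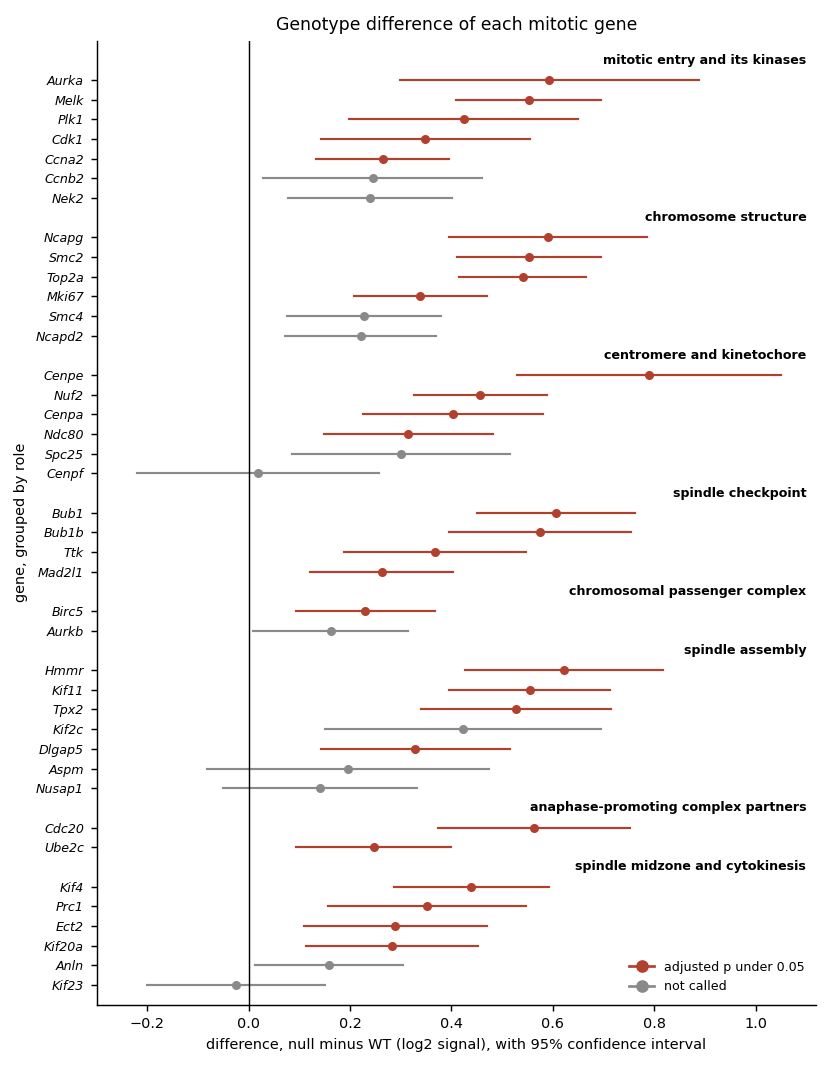
Difference of each of the 40 genes, null minus WT on the log2 scale, with its 95% confidence interval, grouped by role. The 28 called genes are red and the 12 others grey. Cenpe lies furthest right at 0.79, and Cenpf and Kif23 sit on 0.

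The fit was repeated with 1 mouse left out each time. Melk, Top2a, Mki67, Smc2, Ncapg, Cenpa, Cenpe, Nuf2, Bub1, Bub1b, Kif11, Tpx2, Hmmr, Cdc20 and Kif4 were called in each of those 8 fits, and the other 13 called genes were not. The number called was 27 without male null 1, 16 without male null 2, 15 without female null 1 and 15 without female null 2. It was 28 without male WT 1, 17 without male WT 2, 24 without female WT 1 and 21 without female WT 2. Over all genes the share called higher was 6.36%, 3.91%, 4.00% and 5.60% without those null arrays, in the same order. It was 4.27%, 4.78%, 7.46% and 6.31% without those WT arrays, against 7.06% with all arrays. Cdk1, Birc5 and Ube2c were called in 1 of the 8 fits each, Cdk1 and Birc5 without male null 1 and Ube2c without female WT 1. Dlgap5, Kif20a and Ect2 were called in 2 fits each, and Ndc80 and Prc1 in 3. Plk1, Aurka and Mad2l1 were called in 4 each, Ccna2 in 5 and Ttk in 6. Nek2 gained a call without male null 1 (adjusted p = 0.0469) or male WT 1 (adjusted p = 0.0369). No fit of this kind called any of the 40 lower.

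Each sex was then taken alone. In females all 40 differences were above 0 (median 0.41), and in males 38 were (median 0.28), Cenpf (-0.05) and Kif23 (-0.15) being the exceptions. Over all genes the median was 0.03 in females and -0.01 in males. The difference was larger in females in 35 of the 40, against 55.9% of all genes. Female minus male, its median was 0.13 over the 40 and 0.02 over all genes. With each array centred on its median, the difference was larger in females in 29. The female minus male median was then 0.072, against -0.034 over all genes. None of the 40 passed the limma test of this difference between sexes (adjusted p 0.974 to 0.997), and 1, Ttk, had an unadjusted p under 0.05, with 0.52 in females and 0.21 in males. Over all genes 0.00652% were called in that test. Without male WT 1 the median difference between the sexes was 0.01 and 21 of the 40 were larger in females. Without male WT 2 the median was 0.23, without male null 1 it was 0.06 and without male null 2 it was 0.20.

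**Figure D3:**
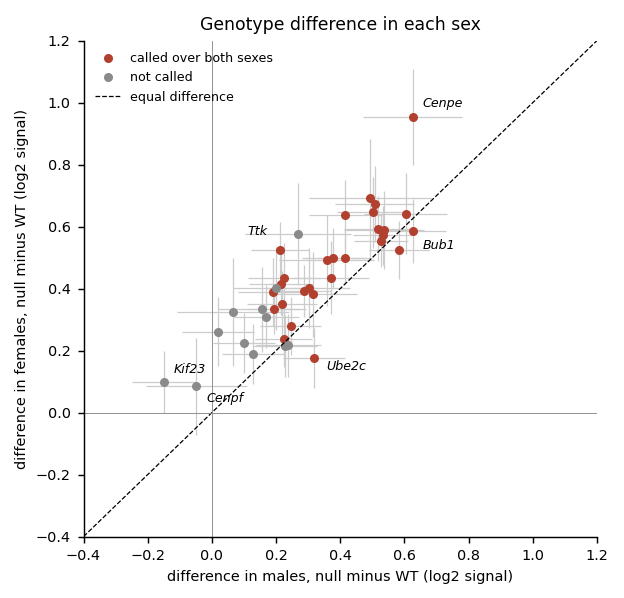
Difference in females (vertical axis) against difference in males (horizontal axis), null minus WT on the log2 scale, for the 40 genes, with bars of 1 standard error. Of the 40 points 35 lie above the dashed line of equal difference, and Cenpe lies highest, at 0.95 in females and 0.63 in males.

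Other genes of mitosis were taken from lists that hold none of the 40. Of 124 measured, 36 were higher and 3 lower, with a median of 0.15, against 7.06% higher and 5.97% lower over all genes. In the spindle checkpoint list 3 of 8 were higher and 0 lower, led by Trip13, the ATPase that remodels MAD2, with 6.35 ± 0.17 in null and 5.66 ± 0.15 in WT skin (SD, n = 4 each), a difference of 0.69 (SE 0.10, adjusted p = 0.00305). Of 6 cytokinesis genes 3 were higher and 0 lower, and Cep55, of the midbody, had 6.70 ± 0.06 in null and 6.05 ± 0.16 in WT skin, a difference of 0.65 (SE 0.08, adjusted p = 0.00132). Among 23 genes of spindle motors and assembly 5 were higher and 0 lower, Tacc3 with 0.50 (SE 0.07, adjusted p = 0.00289) leading. Mitotic entry gave 5 higher and 0 lower of 14, with Mybl2, which encodes B-MYB, at 0.49 (SE 0.07, adjusted p = 0.00384).

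Of 27 further kinetochore and centromere genes 8 were higher and 1 lower, with Zwint, which binds the outer kinetochore, at 0.46 (SE 0.09, adjusted p = 0.00939) and Cenpx, of the constitutive centromere network, at -0.22 (SE 0.05, adjusted p = 0.0181). Condensin, cohesin and passenger genes gave 7 higher and 1 lower of 19. Cdca8, which encodes the passenger subunit borealin, differed by 0.42 (SE 0.06, adjusted p = 0.00395), and Pttg1, which encodes securin, the inhibitor of separase, by -0.25 (SE 0.06, adjusted p = 0.0253). Of 17 APC/C genes, many of them subunits present in all cells, 3 were higher and 1 lower. Ube2s, the enzyme that extends ubiquitin chains on the APC/C, differed by 0.49 (SE 0.06, adjusted p = 0.00189) and the subunit gene Anapc5 by -0.21 (SE 0.06, adjusted p = 0.044). Centrosome genes gave 2 higher and 0 lower of 10, Sass6, of centriole assembly, leading with 0.40 (SE 0.07, adjusted p = 0.00775).

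Genes of earlier phases of the cycle were counted in the same way. Of 28 genes of DNA replication and S phase 6 were higher and 0 lower, with a median of 0.16. Rrm2, a ribonucleotide reductase subunit, led with 0.77 (SE 0.13, adjusted p = 0.0069). Among 17 genes of G1 cyclins, their kinases and inhibitors, 2 were higher and 4 lower (median -0.02), with Cdk6 at 0.82 (SE 0.10, adjusted p = 0.00153) and Ccnd2 at -0.66 (SE 0.10, adjusted p = 0.00352). The genotype differences of the lists were not tested against each other.

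**Figure D4:**
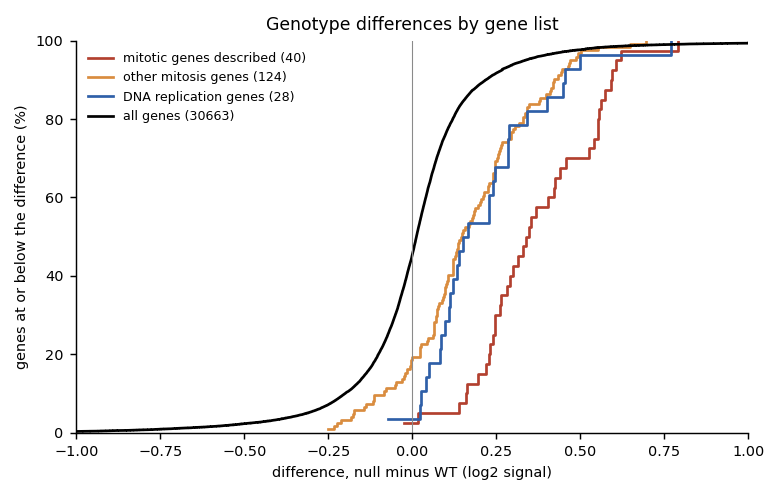
Cumulative share of genes (vertical axis, percent) at or below a given difference (horizontal axis, null minus WT, log2) for the 40 mitotic genes, 124 other mitosis genes, 28 DNA replication genes and all 30663 genes. The mitotic genes lie furthest right, with a median of 0.34, against 0.15, 0.16 and 0.01 for the others; differences beyond 1 either way are outside the plot.

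Markers of the cell types in the tissue moved as well. Skeletal muscle markers were lower in 11 of 13 and higher in 0, with list means of 8.42 to 9.02 in null arrays, against 9.21 to 10.02 in WT arrays. Female WT 1 was the highest array there and stood apart in several of the lists below. Leukocyte markers were higher in 3 of 8 and lower in 0. Their list means were 5.60 to 5.86 in null arrays, against 5.83 in female WT 1 and 5.29 to 5.34 in the other WT arrays. Of basal keratinocyte markers 0 of 7 were higher and 1 was lower, and their list means overlapped. Of 8 hair matrix and shaft markers none was called, but all 8 differences were below 0 (median -0.58) and 5 had an unadjusted p under 0.05. The hair list means were 6.50 to 6.92 in null arrays, against 6.46 in female WT 1 and 7.39 to 7.51 in the other WT arrays. Macrophage markers gave 0 higher and 1 lower of 7, with a median difference of -0.39 and the highest list mean in female WT 1 (6.88). Suprabasal markers gave 0 higher and 3 lower of 8, namely Krt9 (-2.465), Krt2 (-0.60) and Lor (-0.35), with a median difference of -0.07 over the list. Fibroblast markers gave 0 higher and 1 lower of 5 and endothelial markers 2 higher and 0 lower of 6. T cell markers gave 1 higher of 7 and B and plasma cell markers 0 of 5, and none of either list averaged above 4.46, the highest negative control median. The part of any of these cells in the mitotic differences was not tested, but the size of the differences was measured beside 3 of the lists.

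With the basal keratinocyte mean in the model 21 of the 40 genes were called higher and the median was 0.35. With the leukocyte mean 22 were called and the median was 0.40. Together with sex, the basal keratinocyte mean holds 29.3% of the genotype term and the leukocyte mean 42.8%. Over all genes 6.84% were called higher with the basal keratinocyte mean and 5.35% with the leukocyte mean. With the skeletal muscle mean, which together with sex holds 73.0% of the genotype term, 0 were called. The median was 0.36 and all 40 differences were above 0. In that fit 22 of the 40 had an unadjusted p under 0.05, a count not taken over all genes. Single genes moved more than the median: 16 of the 40 were at least as large as without the covariate, and the differences ran from 0.04 in Aurkb to 0.94 in Cenpe. The difference of Mad2l1 was 0.13 with the covariate and 0.26 without it, that of Ttk 0.20 with it and 0.37 without it, and that of Birc5 0.12 with it and 0.23 without it. Kif4 had 0.28 with it and 0.44 without it, while Ube2c had 0.43 with it and 0.25 without it and Aspm 0.51 with it and 0.20 without it. The median standard error then was 0.147, against 0.0784 without it. Over all genes 0.711% were called higher in that fit.

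**Figure D5:**
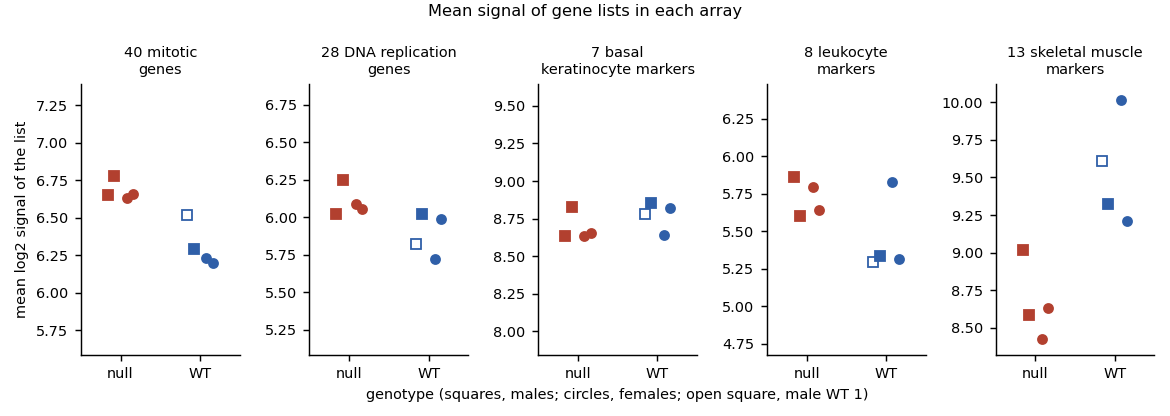
Mean log2 signal of 5 gene lists in each array, null left and WT right in each panel, squares for males, circles for females and an open square for male WT 1; every panel spans 1.8 log2 units. The 40 mitotic genes lie at 6.63 to 6.78 in null arrays, above all WT arrays at 6.20 to 6.52, while the basal keratinocyte markers overlap and the skeletal muscle markers are lower in null arrays.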

How the data were processed

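Total RNA of paw skin was extracted with Trizol, labelled with biotin by the WT PLUS kit and measured on Affymetrix arrays, 1 per mouse, per the labels' protocols. The authors deposited log2 signals made with Partek and RMA, per the submitters' processing notes. The sources used here give no version, setting or genome build. RMA compresses large differences, and the 8 arrays limit the precision.

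Of 72688 probe sets, 6732 controls were left out. The array annotation, with symbols updated through a RefSeq gene table (GRCm38.p6), left 31216 probe sets with 1 gene. Where a gene had several, the brightest was kept, which gave 30663 genes. limma 3.58.1 in R 4.3.3 (lmFit, eBayes with trend) was run on all genes with genotype and sex, leaving 5 residual degrees of freedom, with Benjamini-Hochberg adjusted p under 0.05 as the threshold, after a check on simulated data. A model of 4 group means tested whether the genotype difference depends on sex. CHR and CCAAT letters were searched on both strands of RefSeq promoters. The genes and lists were chosen with earlier results of these data known. All measured members are described by role, and other lists by counts with up to 2 examples, the largest called rise and fall.

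Over all genes, same-numbered mice of a sex deviated together (r = 0.316 in males and 0.115 in females), so a fit with the number as a replicate block was run. In the mean of the 40 members they deviated in opposite directions. Male null 2 lay above male null 1 (6.78 and 6.65), but male WT 1 above male WT 2 (6.52 and 6.29). Female null 2 lay above female null 1 (6.66 and 6.63), but female WT 1 above female WT 2 (6.23 and 6.20). The labels do not say what a shared number stands for. With 2 mice a group the check gives 1 r per sex, so the pairing rests on these 2 r values alone. Other alternatives changed the sex term, normalization, filter, probe set rule, prior, array weights, arrays and tissue covariates.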

Additional observations from a re-analysis of the deposited data

Results flagged for a closer look

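Among the 80 groups of 4 arrays that the 40 genes give, 5 held an array whose gap to its nearest neighbour took up more of the group's range than Dixon's 95% critical value for 4 samples; chance alone gives this in about 1 group in 20. In null skin the array was male null 2 each time. Melk had 6.06 there, against 5.84 to 5.87 in the other null arrays. Top2a had 8.13, against 7.95 to 7.98 in the other null arrays. Cenpa had 6.36, against 6.13 to 6.16 in the other null arrays. In WT skin the array was male WT 1. Kif11 had 7.68 there, against 7.34 to 7.37 in the other WT arrays, and Prc1 had 7.03, against 6.68 to 6.73 in the other WT arrays.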

How the results depend on the processing

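Members called higher numbered 28 as reported and 27 in the fit with the replicate block, a pairing the labels do not state. They numbered 4 in males only, 3 in females only, 0 with the skeletal muscle covariate, and 15 to 28 when 1 array was left out. Over all genes 7.06% were called higher as reported and 8.28% with the replicate block. The share was 2.61% in males only, 0.747% in females only, 0.711% with the muscle covariate and 3.91% to 7.46% when 1 array was left out. With no adjustment 20 members had p under 0.05 in limma's test in males only and 31 in females only. The like count over all genes was not taken in those fits. In the fit as reported it was 8143 of 30663. The small fits have fewer arrays, and the muscle mean and sex together hold 73.0% of the genotype term. The replicate block lost Cdk1 and Ect2, gained Smc4 and changed no other call. Every other setting gave 21 to 32, and none called a member lower. The median difference ran from 0.28 to 0.41 over all settings. Kif23 changed sign with the muscle covariate (0.058) and in females only (0.10), and Cenpf with the basal keratinocyte covariate (-0.045) and in males only (-0.048). Without 1 array Kif23 ran from -0.085 to 0.042 and Cenpf from -0.061 to 0.12. Of 920 gene and setting pairs, 716 kept direction and call, 172 lost the call, 23 gained it and 9 changed sign. No member was called for a difference between sexes in any setting run. Limits are the 2 mice per sex and genotype, the overlap of genotype with lesion and muscle signal, and the weight of male WT 1 in the WT spread. Signals under the negative control median could not be told from background, but no member lay there. A signal above that median can still lie among the negative controls. The lowest, Ncapg in female WT 1, was 4.55, against a control median of 4.27 on that array.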

Other observations

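The arrays that led the mitotic genes led other gene groups to a different extent. Male WT 1 was the highest WT array in 57 of all 124 other mitosis genes and in 3 of 28 DNA replication genes, against 25.2% of all genes. Among the other mitosis lists its share ran from 2 of 8 checkpoint genes to 17 of 23 spindle motor and assembly genes. Male null 2 was the highest null array in 26 of 28 DNA replication genes and in 67 of the 124 other mitosis genes, against 28.3% of all genes. The mean of the DNA replication list was 6.02, 6.25, 6.09 and 6.05 in male null 1, male null 2, female null 1 and female null 2, against 5.82, 6.02, 5.72 and 5.99 in male WT 1, male WT 2, female WT 1 and female WT 2. In that list male WT 1 lay below male WT 2 and female WT 2, while in the 40 mitotic genes it lay above every other WT array. The lists differ in their genes and were not tested against each other.

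In most of the genes the spread within null skin was the smaller one. The SD over 4 null arrays was below the SD over 4 WT arrays in 34 of the 40 genes, against 56.7% of all genes, with medians of 0.092 in null and 0.159 in WT arrays. Without male WT 1, which stood out in these same genes, the null SD was the smaller in 19 of the 40, against 55.8% of all genes, and the median WT SD was 0.082.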
